A study of Mus musculus with 2 samples.

Results

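Choroid plexus epithelial nuclei were sought in single-nucleus RNA data from mouse hippocampus, and 73 were found among 37671 nuclei. A nucleus was kept if at least 500 genes were detected and under 5% of its UMIs (unique molecular identifiers, each counting 1 captured RNA molecule) were mitochondrial, which left 37671 of 51450 barcodes. A kept nucleus was taken as choroid plexus epithelium if it held at least 3 UMIs over Otx2, Folr1, Clic6, Kcnj13 and Kl, with at least 2 of these genes detected, and at least 20 UMIs of Ttr. The library labelled 5XFAD x MR1 KO held 68 of the 73, and the library labelled 5XFAD held 5. The nuclei were thus chosen by the UMIs of these 6 genes, whose levels are given as a description.

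The first library came from 5XFAD x MR1 KO mice and the other from 5XFAD mice, all 8 months old. Both groups carry 5XFAD, transgenes that give rise to amyloid plaques through mutant human APP among others, which Thy1 sequences drive in neurons. MR1 is an MHC class I-like molecule that shows small metabolites of microbes to innate-like T cells. Each library was 1 capture of nuclei from flash-frozen hippocampus and pooled 1 male and 1 female mouse, so neither the groups nor the mice have replicate libraries and no test was made. All intervals are exact 95% intervals and cover counting error only. Over kept nuclei, 93 UMIs of Mr1 (ENSMUSG00000026471; mm10 chromosome 1, 155127277 to 155146814) were counted in the library labelled 5XFAD x MR1 KO, or 1.16 CPM (UMIs per 1000000 UMIs; 0.937 to 1.42), and 61 UMIs, or 0.749 CPM (0.573 to 0.962), in the library labelled 5XFAD. Its RNA thus went against the label, and each direction between libraries belongs to the libraries as labelled. A 3′ count can also lie outside the deleted part of an allele.

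The choroid plexus is a folded epithelium that hangs in the brain ventricles, secretes cerebrospinal fluid and forms the barrier between that fluid and the blood. Its cells pump ions and water across tight junctions, carry nutrients and hormones, and release transthyretin, the product of Ttr, which binds thyroid hormone and amyloid beta. OTX2 is the transcription factor that maintains the fate of these cells. The plexus of the lateral ventricle lies against the hippocampus and can be carried along in a dissection.

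The 2 libraries differed in how many of these nuclei they held. Choroid plexus nuclei were 0.305% of 22263 kept nuclei in the library labelled 5XFAD x MR1 KO (0.237 to 0.387) and 0.0325% of 15408 in the library labelled 5XFAD (0.0105 to 0.0757), a ratio of 9.41 (3.84 to 29.9). With 1 library per label, the label, the mice, the dissection and the capture cannot be told apart. The limit of 20 Ttr UMIs was the same in both libraries. Ttr outside choroid plexus nuclei was higher in the library labelled 5XFAD x MR1 KO, as given below. Its part in the ratio was not tested. The libraries shared 182 barcodes, of which 97 were kept in both, and none was that of a choroid plexus nucleus.

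The thresholds divided the nuclei as follows. In the library labelled 5XFAD x MR1 KO, 94 kept nuclei reached the marker sum with at least 2 of the genes detected, and 26 of these had too little Ttr, with 0, 9.5 and 18 UMIs as the lowest, median and highest. A further 61 had enough Ttr but missed the marker sum or the number of genes, and 32 of them had at least 1 marker UMI. Among the 68 nuclei chosen, 12 had 20 to 24 UMIs of Ttr and 11 had a marker sum of exactly 3. The number of the 5 marker genes detected was 2 in 18 nuclei, 3 in 22, 4 in 19 and 5 in 9. All 68 held between 20 and 291 UMIs of Ttr, with a median of 40, which was 0.234% to 5.65% of a nucleus's UMIs with a median of 1.63%. The other kept nuclei had a median of 3 Ttr UMIs, 99% of them had 10 or fewer, and the highest had 174.

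**Figure D1:**
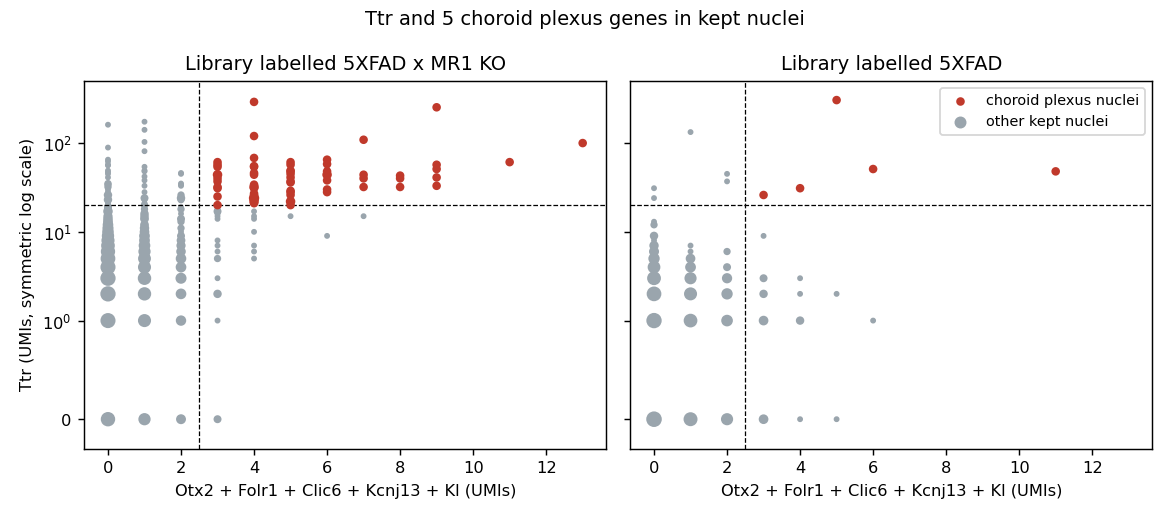
Ttr UMIs (vertical axis, symmetric log scale) against the summed UMIs of Otx2, Folr1, Clic6, Kcnj13 and Kl (horizontal axis) in every kept nucleus of the library labelled 5XFAD x MR1 KO (left) and the library labelled 5XFAD (right). Points are combinations of the 2 values, larger where more nuclei share them, and dashed lines mark 20 Ttr UMIs and the marker sum of 3; the 68 chosen nuclei (red) in the left panel face 5 in the right panel, and 1 grey point beyond both lines in the left panel had only 1 of the genes.

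The 68 nuclei were about as deep as their neighbours. They held 845 to 14106 UMIs with a median of 2340.5, and 688 to 4900 genes with a median of 1554. The other kept nuclei had medians of 2768 UMIs and 1628 genes. Mitochondrial shares had medians of 1.01% in choroid plexus nuclei and 1.17% in the others. Over all barcodes the libraries labelled 5XFAD x MR1 KO and 5XFAD had 85678909 and 106861726 UMIs.

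Known choroid plexus genes outside the rule were checked next. Of 20 such markers, 15 were called higher in the 68 nuclei than in the other kept nuclei of the library, with a median fold of 25.7. A gene was called higher if its CPM, from UMIs summed over nuclei, was at least 4-fold that of the others with a lower bound above 2, and called lower if at most 0.25-fold with an upper bound under 0.5. Over all 20277 genes with at least 20 UMIs, 739 were called higher, or 3.64%, and the median fold was 0.879. With 2-fold limits and a bound beyond 1, 8.23% were higher and 2.68% lower. Trpm3, a calcium-permeable channel gene (chromosome 19, 22139046 to 22995410), was found in every choroid plexus nucleus, with 4, 38.5 and 132 UMIs as the lowest, median and highest. Its level was 13758.2 CPM in choroid plexus nuclei and 901 CPM in the others, a fold of 15.3 (14.7 to 15.8). Htr2c, the serotonin 2C receptor (chromosome X, 146962513 to 147197277), had 1, 19 and 104 UMIs per nucleus, and its fold was 39.7 (37.8 to 41.7). Enpp2 encodes autotaxin, which makes lysophosphatidic acid (chromosome 15, 54838901 to 54952892). It had 2, 14.5 and 56 UMIs per nucleus and a fold of 43.9 (41.1 to 46.8).

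The markers that did not pass were few. Sostdc1, an inhibitor of BMP signalling, had 4 UMIs (fold 6.34, 1.71 to 16.5), and Slc31a1, a copper importer, had 10 (2.98, 1.43 to 5.51). Slc12a2, the sodium-potassium-chloride cotransporter that moves ions at the apical face of these cells, had 41 UMIs and a fold of 3.14 (2.25 to 4.27). Aqp1, the water channel of this epithelium, had only 1 UMI in the 68 nuclei and 24 in all the others (fold 13.9, 0.337 to 85.1). Cldn1 had 2.

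Shares of nuclei with a UMI were set beside those of dentate granule neurons. Whether granule neurons themselves express any of these genes was not tested. Htr2c was found in 100% of choroid plexus nuclei and in 12.2% of the 1316 nuclei that met a granule neuron rule, whose median depth was 3332 UMIs. Otx2os1 was found in 92.6% of choroid plexus nuclei and 0.456% of granule neurons, and Slc4a5 in 55.9% of choroid plexus nuclei and 0.076% of granule neurons. Ttr, in contrast, was found in 94.5% of granule neurons and Trpm3 in 93.2%, so a UMI of either gene did not mark a choroid plexus nucleus here. After each nucleus was thinned to 1000 UMIs, which kept 66 choroid plexus nuclei and 1303 granule neurons, Htr2c was found in 95.5% of choroid plexus nuclei and 4.53% of granule neurons, and Otx2os1 in 75.8% of choroid plexus nuclei and 0.0767% of granule neurons.

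The gene with the highest lower bound of its fold was Otx2os1, a long noncoding RNA that overlaps Otx2 on the opposite strand (chromosome 14, 48668708 to 48870683). Choroid plexus nuclei had 289 UMIs of it, with 0, 4 and 12 per nucleus as the lowest, median and highest, and the other 22195 nuclei had 344 in all. The fold was 280 (238 to 328). Otx2 itself had 55 UMIs in choroid plexus nuclei and 55 in all others, a fold of 333 (225 to 493). The strand setting of the counts is not given in the sources used here, so reads of Otx2 and Otx2os1 may not be told apart where they overlap. Slc4a5, which carries sodium bicarbonate across the apical membrane (chromosome 6, 83219828 to 83304945), had 57 UMIs in each (fold 333, 227 to 489). Tmem72, a membrane protein gene (chromosome 6, 116679063 to 116716913), had 86 UMIs and a fold of 275 (204 to 370).

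The other leading genes outside the rule are given with their UMIs and folds. Spag16 (273 UMIs, fold 192), Drc7 (92, 173), Ccdc114 (56, 93.7) and Dnah6 (52, 91.6) encode parts of the axoneme of motile cilia, and Gmnc (150, 148) encodes a coiled-coil protein that starts the multiciliated cell programme. Mecom (79, 142), Prdm16 (89, 85.9) and Lef1 (53, 125) encode transcription factors, the last one of the Wnt pathway. Col4a3 (64, 213), Col8a1 (137, 102) and Col9a3 (90, 69.7) encode collagen chains. Rbm47 (154, 78.9) encodes an RNA-binding protein, Shroom3 (62, 60.7) an actin-binding protein of the apical surface, Pdgfd (64, 69.9) a growth factor and Oca2 (55, 121) a transporter of pigment organelles. Mdfic (55, 114) encodes a protein that binds transcription factors. C330002G04Rik (140, 65.7) is a noncoding RNA on the strand opposite Trpm3, with the same limit on strand.

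In the 5 nuclei of the library labelled 5XFAD, all 20 leading genes had at least 1 UMI. Of the 19 with enough UMIs to compare there, 18 were called higher than in the other nuclei of that library. Of all genes compared there, 0.881% were called higher. The 5 nuclei held 26, 31, 48, 51 and 305 UMIs of Ttr. Trpm3 had 32, 49, 121, 74 and 1 UMIs in the same order, and Htr2c had 20, 11, 73, 88 and 2. The nucleus with 305 Ttr UMIs thus had hardly any Trpm3 or Htr2c, although it held 31 UMIs of Enpp2. Of the 739 genes called higher in the library labelled 5XFAD x MR1 KO, 689 could be compared in the other library. Of these 689, 129 were called there, beside the 0.881% of all genes, and 315 had no UMI in those 5 nuclei.

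**Figure D2:**
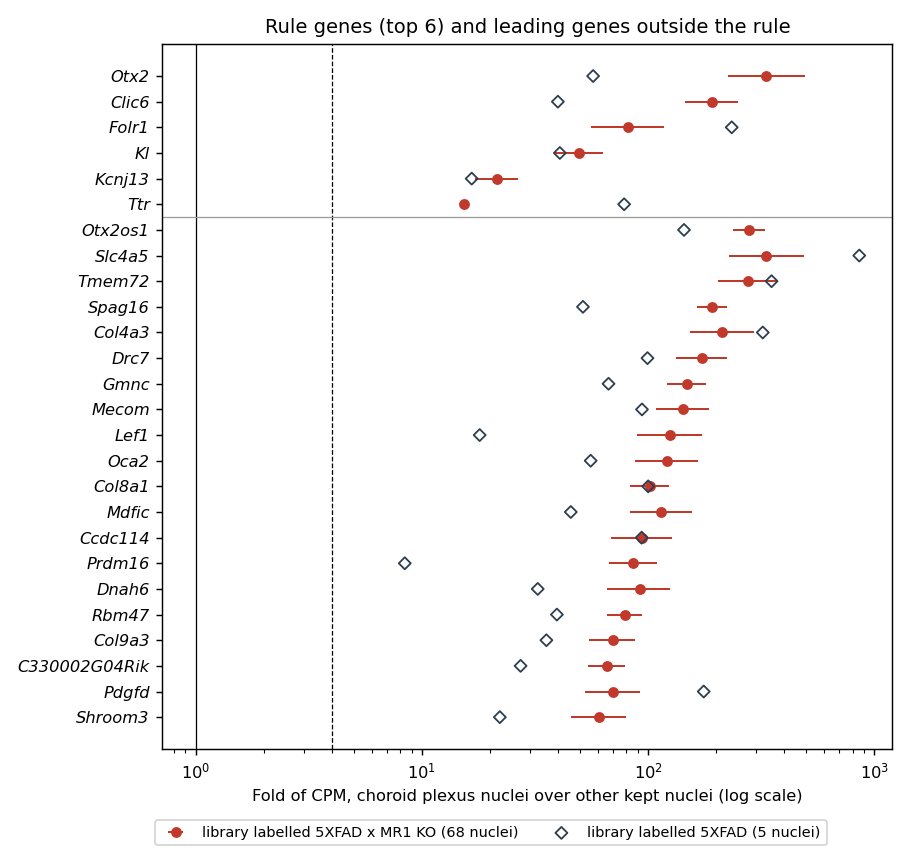
Fold of CPM, choroid plexus nuclei over the other kept nuclei of the same library (horizontal axis, log scale), for the 6 rule genes above the grey line and the 20 leading genes outside the rule below it. Filled points with exact 95% intervals are the 68 nuclei of the library labelled 5XFAD x MR1 KO, open diamonds are the 5 nuclei of the library labelled 5XFAD, and the dashed line marks 4-fold; every filled point lies between the 15.3 of Ttr and the 333 of Otx2 and Slc4a5.

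Start sites of these genes were searched for the core motif of OTX2, the factor whose gene helped to choose the nuclei. RefSeq windows of 300 bases (250 before to 50 after a start, GRCm38.p6) were found for 20 of 26 genes looked up, the 6 rule genes and the 20 leading ones. The motif TAATCC, on either strand, was in windows of 3 of these 20 genes, or 15.0%, and in 8.14% of the 27025 genes in the table. Counted by window, it was in 8.57% of the 35 windows of these genes and 7.06% of all 32851 windows. The forkhead motif GTAAACA was in 0 of the 20 genes and 4.05% of the table. The half-site GTTGCCA of RFX factors was in 2 of the 20 genes, or 10.0%, and 5.02% of the table. The 3 windows that hold the OTX2 core are shown because they are the only sequences behind that count. The motif is in capitals, here as GGATTA, its reverse complement. They lie at chr14:48665060-48665359 on the minus strand for Otx2, chr5:66151905-66152204 on the minus strand for Rbm47 and chr5:92897743-92898042 on the plus strand for Shroom3, each 5′ to 3′. A match is a description and not a shown binding site.
Otx2: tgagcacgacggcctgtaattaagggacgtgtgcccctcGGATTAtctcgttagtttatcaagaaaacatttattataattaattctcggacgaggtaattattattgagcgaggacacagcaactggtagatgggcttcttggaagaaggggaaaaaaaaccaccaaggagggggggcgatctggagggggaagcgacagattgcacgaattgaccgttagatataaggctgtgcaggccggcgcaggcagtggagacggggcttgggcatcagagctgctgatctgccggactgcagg
Rbm47: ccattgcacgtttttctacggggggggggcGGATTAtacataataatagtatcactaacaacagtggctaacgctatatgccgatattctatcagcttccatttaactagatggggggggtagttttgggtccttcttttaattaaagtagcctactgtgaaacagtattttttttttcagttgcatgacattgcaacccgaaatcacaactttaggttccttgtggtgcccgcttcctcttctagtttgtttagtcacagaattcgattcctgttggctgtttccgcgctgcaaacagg
Shroom3: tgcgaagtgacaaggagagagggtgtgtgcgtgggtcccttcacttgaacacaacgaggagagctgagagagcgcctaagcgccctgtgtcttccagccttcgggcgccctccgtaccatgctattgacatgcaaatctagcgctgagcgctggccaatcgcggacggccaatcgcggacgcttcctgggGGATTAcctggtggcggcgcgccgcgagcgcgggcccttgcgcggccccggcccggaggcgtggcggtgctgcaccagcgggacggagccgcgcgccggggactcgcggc

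Genes of choroid plexus function were counted in lists chosen with earlier results of these data known. The counts are to be read against the 3.64% of all genes called higher. They include rule genes, which had to be high, namely Otx2 among the transcription factors, Kcnj13 and Clic6 among the ion transport genes, Ttr in the secreted and thyroid lists, and Folr1 and Kl among the receptors. Of 18 transcription factors of choroid fate and ciliation, 9 were called higher, none lower, and the median fold was 3.24. Lmx1a, which specifies roof plate and choroid fate, had 47 UMIs and a fold of 340 (222 to 522). Foxj1, the master factor of motile cilia, had 10 UMIs (47.6, 21.9 to 92.7), and Msx1, a roof plate factor, had 27 (108, 67.4 to 169). Zfhx4 had 41 (4.41, 3.16 to 6.0), and Rfx2, Zic1 and Zic4 were also called. Zic1 and Zic4 are neighbours on chromosome 9, with 7 UMIs each. Rfx3, another ciliary factor, had 226 UMIs and a fold of 1.97 (1.72 to 2.25) and was not called.

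Of 30 genes for ion and water transport, 13 were called higher and none lower (median fold 2.85). Slc4a10, a sodium bicarbonate transporter of the basolateral face, had 390 UMIs and a fold of 4.71 (4.25 to 5.21). Stk39, the kinase that switches on Slc12a2, had 358 UMIs (12.7, 11.4 to 14.1). Kcne2, a potassium channel subunit, had 28 UMIs (124, 77.5 to 194), and Trpv4, an osmosensing channel, had 25 (112, 68.5 to 179). Kcnj13, a rule gene that lies within Gigyf2 on the other strand, had 93 (21.5, 17.2 to 26.5). Atp1b1, a sodium pump subunit gene that neurons also express, was not called, with a fold of 1.01 (0.869 to 1.18).

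Of 28 genes for solute, drug and nutrient transport, 12 were called higher and none lower (median fold 2.94). Slco1c1, which carries thyroid hormone, had 62 UMIs and a fold of 57.2 (42.9 to 75). Slc23a2 carries vitamin C and had 125 UMIs (5.85, 4.86 to 6.98). Slc6a20a, a proline transporter, had 61 (39.2, 29.6 to 51.2). Slco1a4, Slco1a5, Slc13a4, Slc28a3, Slc29a4, Slc39a12, Slc2a12 and Slc16a8 were also called.

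Of 24 secreted proteins, 13 were called higher, none lower, and the median fold was 6.30. Besides Ttr, Enpp2 and the collagens, Igfbp2, which binds insulin-like growth factors, had 21 UMIs and a fold of 13.8 (8.44 to 21.3). Igf2, the growth factor itself, had 4 (11.4, 3.05 to 29.9), and Vegfa, which maintains the fenestrated vessels under this epithelium, had 26 (4.83, 3.15 to 7.10). Of 24 receptor and uptake genes, 9 were called (median 1.72). Prlr, the prolactin receptor, had 131 UMIs and a fold of 26.0 (21.6 to 31.1). Lepr, the leptin receptor, had 24 (32.0, 20.1 to 48.7), and Cab39l, a scaffold of STE20-type kinases, had 163 (10.7, 9.06 to 12.5). Lrp2, the uptake receptor megalin, had no UMI in the 68 nuclei and 147 in the others, or 1.84 CPM. At that level no UMI does not show absence.

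Of 23 tight junction and polarity genes, 6 were called higher and none lower (median fold 3.01). Cldn2, a claudin that forms cation and water pores, had 13 UMIs and a fold of 155 (73.5 to 308). Ocln had 11 (6.42, 3.19 to 11.6) and Esrrg, a nuclear receptor of ion-transporting epithelia, 197 (6.03, 5.21 to 6.94). Of 23 cilia genes, 13 were called, the largest share of the lists, with a median fold of 8.61. Among them Dnah11, a dynein arm gene, had 29 UMIs (40.2, 26.4 to 59.3) and Cfap44 44 (7.37, 5.34 to 9.93). Dnah12 and Spag17, cilia genes that also mark ependymal cells, had no UMI. They were at only 2.42 and 3.38 CPM in the other nuclei, too low for this to show absence.

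Genes that tell the lateral from the hindbrain plexus were too few to place these nuclei. Of 5 compared, Otx1, a forebrain factor, had 4 UMIs (60.5, 15.2 to 178), and Emx2 and Lhx2 had 2 and 1. The 9 Hox genes on the list had fewer than 20 UMIs in the library and were not compared.

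**Figure D3:**
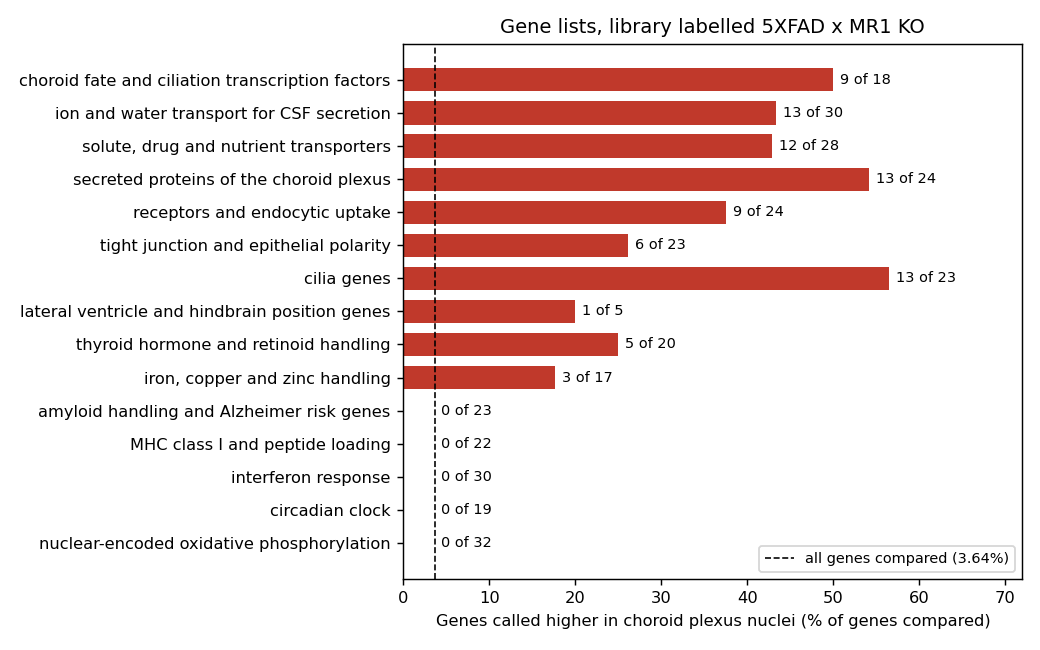
Share of compared genes called higher in choroid plexus nuclei (horizontal axis, percent) for each gene list, with the number called of the number compared beside each bar. The dashed line is the 3.64% of all compared genes; the cilia list (13 of 23) and the secreted list (13 of 24) reach furthest, and the 5 lowest lists have none.

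Lists for hormone and metal handling had fewer calls. Of 20 genes for thyroid hormone and retinoids, 5 were called higher (median fold 1.28), among them Ttr, Slco1c1 and Rdh5, a retinol dehydrogenase with 27 UMIs (25.4, 16.5 to 37.6). Of 17 genes for iron, copper and zinc, 3 were called (median 1.02). These were the zinc transporter Slc39a12 with 44 UMIs (11.9, 8.57 to 16.0), the metal reductase Steap2 with 40 (20.6, 14.6 to 28.4) and the copper pump Atp7a with 40 (10.4, 7.43 to 14.3). The iron store Fth1 stood at 1.00 (0.887 to 1.13).

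The lists for amyloid, MHC class I and interferon genes had no calls in either direction, while Mr1, which is on none of them, met the limits for a higher call on 3 UMIs. Over all genes compared, 3.64% were called higher and 0.108% lower, so having no call in lists of this size lies near those shares. None of 23 genes for amyloid handling and Alzheimer risk was called, with a median fold of 1.07. Cst3, an inhibitor of cathepsins, had 433 UMIs and a fold of 1.11 (1.01 to 1.22), Apoe 387 (1.21, 1.09 to 1.34), App 176 (0.956, 0.819 to 1.11) and Itm2b 102 (0.911, 0.743 to 1.11). Reads of the human transgene and of mouse App were not told apart. None of 22 MHC class I and peptide-loading genes was called (median 1.06), with 16 UMIs of B2m (0.774, 0.442 to 1.26) and 74 of the chaperone gene Canx (2.08, 1.63 to 2.61). Mr1 had 3 UMIs in the 68 nuclei (11.1, 2.25 to 33.5) and none in the 5. None of 30 interferon response genes was called (median 0.971), and 10 of them had no UMI. Ifi27 had 27 UMIs (2.61, 1.72 to 3.80). None of 19 clock genes was called (median 1.04), with Rora at 1.52 (1.31 to 1.76) and Npas2 at 2.28 (1.62 to 3.12). None of 32 nuclear-encoded oxidative phosphorylation genes was called (median 1.07), with Cox4i1 at 1.17 (0.981 to 1.38) and Cox8a at 1.23 (1.02 to 1.46).

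Few genes were called lower in choroid plexus nuclei, 22 of 20277, or 0.108%. Genes with few UMIs in the library could not be called lower. For them even no UMI in choroid plexus nuclei left the upper bound above 0.5. The share called lower is thus limited by the counts and cannot be weighed directly against the share called higher. Among them were the neuronal genes Scn1a, a sodium channel (8 UMIs, fold 0.196, 0.0846 to 0.386), Ntng1, an axonal adhesion protein (24, 0.246, 0.157 to 0.365), and Neto1, a glutamate receptor partner (14, 0.213, 0.116 to 0.357). These were named after their values were seen. The 10 general neuronal markers had a median fold of 0.518 and none was called lower. They made up 0% to 2.73% of the UMIs of a choroid plexus nucleus with a median of 0.218%, and 0% to 5.60% with a median of 1.82% in the other nuclei.

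The number of genes called changed with which nuclei were kept. The genes called higher made up 2.94% to 24.9% of the UMIs of a choroid plexus nucleus, with a median of 17.3%, against a median of 1.01% in the others. These genes were called in the same nuclei and include the rule genes, so their shares are a description. In the 49 nuclei with under 4000 UMIs their median share was 18.9% and that of neuronal markers 0.192%. In the 19 deeper ones these medians were 6.67% and 1.42%, while the median of Ttr was 37 UMIs in the shallower and 44 in the deeper nuclei. RNA of both sexes was found in 5 of the 49 and 10 of the 19, and a high Scrublet doublet score in 7 of the 49 and 15 of the 19. Depth, Scrublet score and RNA of both sexes thus moved together, and their parts were not tested. The split at 4000 UMIs was chosen after these values were seen.

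In the 49 shallower nuclei alone, 850 genes were called higher, or 4.19%, and 333 lower, or 1.64%. Rbfox1, a neuronal splicing factor, was then at 0.0962 (0.0707 to 0.128), Meg3 at 0.153 (0.124 to 0.186) and Syt1 at 0.178 (0.132 to 0.236), and 6 of the 10 neuronal markers were called lower. Slc12a2 was called higher at 4.33 (2.77 to 6.45), as were Npas2 and Cry1 of the clock list and 17 of the 20 choroid markers. Tjp1, of the tight junction and polarity list, was called lower with 6 UMIs (0.167, 0.0613 to 0.364). The amyloid, MHC class I, interferon and oxidative phosphorylation lists still had no calls. The 22 nuclei with a high Scrublet score were 32.4% of the 68 nuclei, against 17.5% of the other kept nuclei.

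Both mice of a library could be told apart in part by sex-linked RNA. A nucleus was assigned to the male mouse if it had a UMI of a Y-linked gene (Uty, Kdm5d, Eif2s3y, Ddx3y) but none of Xist. It was assigned to the female mouse if it had at least 2 UMIs of Xist and none of the Y-linked genes. Of the 68 nuclei, 27 were assigned to the male and 6 to the female mouse, 15 had RNA of both and 20 could not be assigned. Choroid plexus nuclei were 0.736% of the nuclei of the male mouse (0.486 to 1.07) and 0.0512% of those of the female mouse (0.0188 to 0.111), a ratio of 14.4 (5.82 to 42.6). The female mouse thus gave 18.2% of assigned choroid plexus nuclei (6.98 to 35.5), against 76.3% of the other assigned nuclei. Without nuclei with a high Scrublet score, none of the assigned choroid plexus nuclei was from the female mouse, which allows a share of up to 13.7%. In the library labelled 5XFAD, 3 of the 5 were assigned to the male mouse, none to the female mouse, and 2 had RNA of both.

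The share of UMIs from the genes called higher was also set out by mouse; these genes were called in the same 68 nuclei, so the shares are a description. The genes called higher made up a median of 19.3% of the UMIs in male nuclei, with a range of 5.23% to 24.9%. In the 6 female nuclei the median was 6.72% and the range 2.94% to 10.8%. Nuclei with RNA of both sexes had a median of 6.69% and unassigned ones 19.0%. Median depths were 2357 UMIs in male nuclei and 4113.5 in female nuclei, so depth moved with the mouse. A high Scrublet score was found in 2 of the 27 male and all 6 female nuclei. The parts of depth and of doublets were not tested. With 6 female nuclei the mice were not compared gene by gene.

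**Figure D4:**
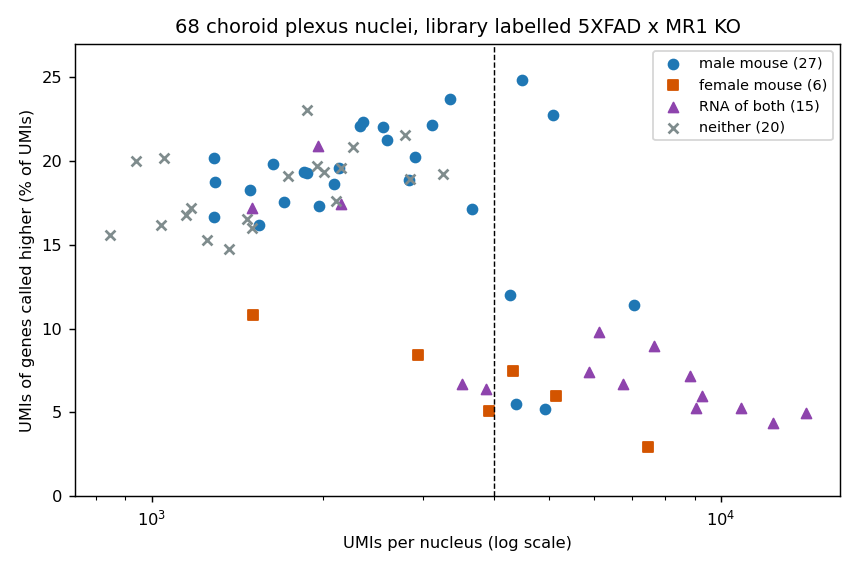
Share of UMIs from the genes called higher (vertical axis, percent) against UMIs per nucleus (horizontal axis, log scale) in the 68 choroid plexus nuclei of the library labelled 5XFAD x MR1 KO, by mouse. The dashed line marks 4000 UMIs; no nucleus of the female mouse lies above 10.8%, and the 20 unassigned nuclei lie between 14.8% and 23.1%.

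Trpm3 was low in a few nuclei. Of the 68, 3 had at most 5 UMIs of Trpm3. Their Ttr was 32, 120 and 291 UMIs, their Htr2c 10, 1 and 11, and their Enpp2 9, 17 and 13, in the same order. The first and second were assigned to the female mouse and the other had RNA of both. They were named after their values were seen.

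Of 74 markers of other cell types compared, 5 were called higher in the choroid plexus nuclei, or 6.76%, to be read beside the 3.64% of all genes. Of 8 ependymal markers, 5 had no UMI, among them Tmem212, Ccdc153 and Rarres2, and Dynlrb2 and Cfap126 were called higher with 4 and 6 UMIs. All 8 together gave 50 CPM in choroid plexus nuclei and 18.3 CPM in the others. Of 8 vascular leptomeningeal markers none was called and 3 had no UMI, and all 8 gave 33.3 CPM in choroid plexus nuclei and 23 CPM in the others. Of 8 endothelial markers 3 had no UMI, among them Cldn5, and Mecom was called. The 8 gave 363 CPM in choroid plexus nuclei, 329 of it from Mecom, and 26.6 CPM in the others, 2.32 of it from Mecom. Of 5 border macrophage markers 4 had no UMI and none was called. These 5 gave 25 CPM in choroid plexus nuclei, from 6 UMIs, and 12.8 CPM in the others. None of 8 oligodendrocyte, 6 precursor or 5 granule neuron markers was called. Several markers without a UMI were also rare in the other nuclei, such as Tmem212 at 0.952 CPM and Cldn5 at 1.72 CPM. No UMI at such levels does not show absence. Slc7a10, an amino acid transporter of astrocytes, was the 1 astrocyte marker called, with 18 UMIs (19.4, 11.3 to 31.2), whereas the 8 markers together gave 308 CPM in choroid plexus nuclei and 697 CPM in the others.

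Cx3cr1, the fractalkine receptor and a marker of microglia, was called higher with 38 UMIs (4.52, 3.19 to 6.22). It was found in 35.3% of choroid plexus nuclei and 4.94% of granule neurons, and after thinning in 18.2% of choroid plexus nuclei and 1.61% of granule neurons. The other 7 microglial markers were not called, with C1qa at 0.955 (0.661 to 1.34) and P2ry12 at 0.884 (0.523 to 1.40). The 8 markers together gave 621 CPM in choroid plexus nuclei and 520 CPM in the others, with median shares of UMIs of 0.0522% in choroid plexus nuclei and 0.0328% in the others. By a rule of 3 UMIs over 5 markers, 17 of the 68 nuclei (25%, 15.3 to 37.0) and 14.1% of the others counted as microglia. That rule did not isolate microglia here, since its nuclei had a median of 1.69% neuronal UMIs. The part of other cells' RNA in the Cx3cr1 count was not tested.

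The choroid plexus nuclei were also compared with nuclei of other non-neuronal classes, where fewer genes had enough UMIs. Of 3521 genes compared with the 34 vascular leptomeningeal nuclei, 101 were higher (2.87%) and 61 lower (1.73%) in choroid plexus nuclei. Slc6a20a was lower, at 0.172 (0.123 to 0.238), and Trpm3 stood at 0.816 (0.764 to 0.873). Against the 145 astrocyte nuclei, 240 of 6596 genes were higher (3.64%) and 175 lower (2.65%). Apoe was lower at 0.114 (0.103 to 0.127) and Slc39a12 stood at 0.656 (0.454 to 0.931), whereas Stk39 was higher at 30.6 (19.9 to 49.4). Against the 33 endothelial nuclei, 162 of 3679 were higher (4.4%) and 49 lower (1.33%). Slco1c1 stood at 0.755 (0.481 to 1.21), Mecom at 0.687 (0.467 to 1.02) and Lef1 at 0.922 (0.547 to 1.61). Slco1a4 was lower, at 0.212 (0.129 to 0.341). It stood at 1.2 (0.515 to 3.25) against leptomeningeal nuclei and was called higher against astrocyte nuclei. Pdgfd was not called against any of these classes. It stood at 1.33 against leptomeningeal, 2.86 against astrocyte and 1.95 against endothelial nuclei. Otx2os1 had no UMI in leptomeningeal and endothelial nuclei and 1 in astrocyte nuclei. The classes were found by markers, so the genes of those rules are a description.

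Ttr was also found outside choroid plexus nuclei, and far more in the library labelled 5XFAD x MR1 KO. There, 93.6% of the other kept nuclei had a Ttr UMI, against 54.7% in the library labelled 5XFAD. The level was 900 CPM (893 to 906) in the library labelled 5XFAD x MR1 KO and 165 CPM (162 to 168) in the library labelled 5XFAD, a ratio of 5.45 (5.35 to 5.55). By class the ratio was 5.63 (5.15 to 6.16) in granule neurons, 5.63 (5.19 to 6.11) in oligodendrocytes, 5.74 (5.26 to 6.26) in their precursors, 5.02 (4.04 to 6.29) in astrocytes, 5.48 (3.18 to 10.2) in leptomeningeal nuclei and 6.26 (5.93 to 6.62) in nuclei of the microglia rule. The mean was 3.41 Ttr UMIs per nucleus in granule neurons and 3.33 in oligodendrocytes of the library labelled 5XFAD x MR1 KO. Median depths of these classes were 3332 and 1249 UMIs. In the library labelled 5XFAD the means were 0.873 and 0.935. Ttr was not even over the classes of the library labelled 5XFAD x MR1 KO. It stood at 3331.7 CPM in 33 endothelial nuclei and 2358 CPM in 34 leptomeningeal nuclei. In astrocytes it was 1003.4 CPM and in nuclei of the microglia rule 889 CPM. The endothelial class had only 3 nuclei in the library labelled 5XFAD and is not among the ratios. The choroid plexus nuclei, which the rule chose by Ttr, are given as a description. They were at 13758.2 CPM (13292.9 to 14235.8) in the library labelled 5XFAD x MR1 KO and 12931.6 CPM (11778.0 to 14167.8) in the library labelled 5XFAD, where 305 of 461 UMIs came from 1 nucleus.

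**Figure D5:**
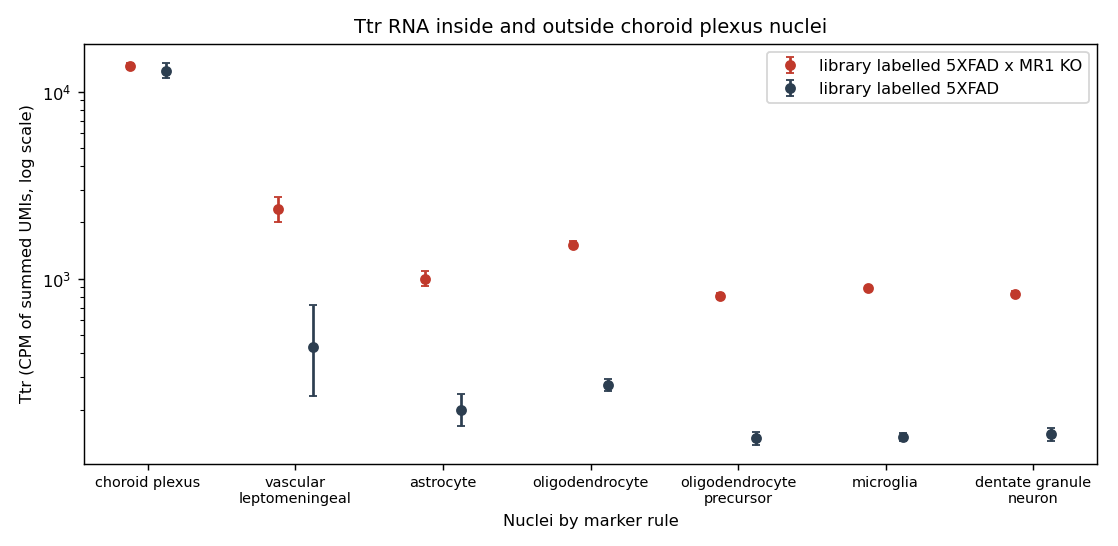
Ttr in CPM of summed UMIs (vertical axis, log scale) with exact 95% intervals, in choroid plexus nuclei and in nuclei of 6 other marker rules, in the library labelled 5XFAD x MR1 KO (left of each pair) and the library labelled 5XFAD. The first pair lies near 13758.2 and 12931.6 CPM, and in each other pair the point of the library labelled 5XFAD x MR1 KO is the higher one.

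The 68 nuclei held 4.39% of all Ttr UMIs of the kept nuclei of their library and 0.300% of all UMIs. UMIs of other choroid genes were also set beside those of Ttr. The rule chose the choroid plexus nuclei by Ttr, so these ratios are a description. For every 100 Ttr UMIs there were 31.4 Enpp2 UMIs in choroid plexus nuclei and 6.29 in granule neurons. For Htr2c the values were 52.6 in choroid plexus nuclei and 10.9 in granule neurons, and for Trpm3 100 in choroid plexus nuclei and 225 in granule neurons. Both Ttr in other nuclei and the number of choroid plexus nuclei were higher in the library labelled 5XFAD x MR1 KO, and whether the first came from free RNA was not tested.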

How the data were processed

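Nuclear RNA was captured by 3′ droplet sequencing (10x v3.1 chemistry, 28 and 91 bp reads), with about 20 mg of tissue and a target of 10000 nuclei per library, per the labels' protocols. The deposited files hold raw UMI counts per gene and barcode, which the authors made with Cell Ranger 7.0.0, per the file headers. The submitters' processing notes name mm10 and Seurat, with no role given for the latter tool. How introns and strands were counted, and the annotation release, is not given in the labels or headers.

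The limits on genes and mitochondrial UMIs, the members and the lists were chosen with earlier results of these data known. Counts were summed over nuclei and scaled to CPM with pandas 2.3.3 and numpy 2.4.6 in Python 3.11.15. Folds, over genes with at least 20 UMIs, carry exact conditional binomial 95% intervals, shares Clopper-Pearson and CPM exact Poisson intervals (scipy 1.17.1). Intervals cover counting error only. The calculation was tested on simulated data. Doublets stayed in, and Scrublet (scanpy 1.11.5, threshold at an expected 0.8% per 1000 nuclei) gave an alternative. Other classes needed 3 UMIs over 5 markers with at least 2 detected and no other class's rule. Named genes were the 6 rule genes, Mr1, the 20 genes with the highest lower bound (at least 50 UMIs, in at least 20% of the 68 nuclei) and up to 4 per list, plus others where a count or role called for them; some of these genes are not reported here. Coordinates are from GENCODE M21 (GRCm38, called mm10), which matched 32158 of 32285 gene IDs, and promoters from RefSeq (GRCm38.p6). A comparison of the mice by gene needed 20 nuclei from each and was not run. Alternatives changed the nucleus limits, the rule, doublets, totals, gene filter, call rule, depth and comparison group.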

Additional observations from a re-analysis of the deposited data

Results flagged for a closer look

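Barcodes removed by the mitochondrial limit also held choroid plexus RNA. In the library labelled 5XFAD x MR1 KO, 15 of the 2148 barcodes at or above 5% mitochondrial UMIs met the rest of the rule (0.698%, exact binomial interval 0.391 to 1.15). In the library labelled 5XFAD, 3 of 8098 did (0.0370%, 0.00764 to 0.108). These barcodes entered no comparison.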

How the results depend on the processing

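The ratio of choroid plexus shares between the libraries stayed above 1 with its interval under every alternative that gave one, between 6.23 and 11.9. The number of nuclei in the library labelled 5XFAD x MR1 KO was 33 with a mitochondrial limit of 1%, 32 with 5 marker UMIs over 3 genes and 18 with 50 Ttr UMIs. In the library labelled 5XFAD it was 8 with no mitochondrial limit, 0 with 1%, 2 with 5 marker UMIs or 50 Ttr UMIs, and 3 without high Scrublet scores or without nuclei with RNA of both sexes. The female share of assigned nuclei was 0% (up to 13.7%) without high Scrublet scores.

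Genes called higher numbered 1668 at 2-fold with a bound above 1, 206 against astrocyte, leptomeningeal and endothelial nuclei, and 149 in the 6 female nuclei. Genes called lower, 22 in the main setting, varied most. They numbered 394 without high Scrublet scores, 128 without nuclei with RNA of both sexes, 333 in the 49 nuclei with under 4000 UMIs and 65 in the 47 that met no other class's rule (both of these chosen after seeing the data). They numbered 193 in male nuclei, 3 in female nuclei, 56 after thinning, 163 against the 3 non-neuronal classes, 543 at 2-fold, 13 with folds centred on the median gene and 11 with a mitochondrial limit of 1%. The cause was not tested.

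All 20 leading genes were called higher in every alternative except against the 3 non-neuronal classes, where 16 were, and in female nuclei, where 15 were. Of 1570 gene folds under alternatives, 1131 stayed within the main interval, 428 moved and 11 changed direction. Cst3 stood at 0.996 with 5 marker UMIs, 0.313 against the 3 classes and 0.731 in female nuclei. Against the 3 classes, Apoe stood at 0.147, Slc39a12 at 0.884, Rora at 0.684 and Cox8a at 0.720. Mr1 had no UMI in male or in female nuclei (fold 0), and Nr1d2 and the median of the junction list were at 0 in the female nuclei. No paired analysis was possible because each label had 1 library. Depth limits lists of low counts, such as the interferon list with 74 UMIs in all.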

Other observations

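Among the 739 genes called higher, 610 were protein-coding and 56 were long intergenic RNAs. Only 438 of them had at least 10 UMIs in the 68 nuclei, and 71 had 1 to 3, so most of the low ones rest on few molecules. Genes with at least 1000 UMIs in the library, 9586 in number, had a median fold of 0.994.

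Some nuclei reached the marker sum with at least 2 of the 5 genes detected but had too little Ttr. The 26 in the library labelled 5XFAD x MR1 KO had a median of 1975 UMIs and 9.5 of Ttr. The 14 in the library labelled 5XFAD had a median of 14162 UMIs and 1 of Ttr.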
